A study of Mus musculus with 2 samples.

Results

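The genes described here are 10 members of the BCL2 family, which sets whether a cell keeps its mitochondria intact or releases the signals that start apoptosis. They were picked by symbol and role, and the rule has no threshold on a measured value, although earlier results of these data were known when it was written: the anti-apoptotic genes Bcl2l1, Mcl1 and Bcl2, the effectors Bak1 and Bax, and the BH3-only genes Bid, Bcl2l11, Bad, Pmaip1 and Bbc3. All 10 were found among the 43346 gene rows of the deposited tables, with 40 annotated transcripts, of which 26 had counts in at least 1 library. The cells were primary erythroblasts, precursors of red blood cells that still hold a nucleus, from male adult mice of the strain C57BL/6J at an age of 5 to 6 weeks, with no treatment named. Total RNA (1 ng per library, with added spike-in RNA) was sequenced in 2 libraries. A protocol title in the labels names bone marrow as the source of the isolated progenitors, but the sort that defined the erythroblasts is not given there. The libraries carry biological replicate numbers 1 and 2 and separate biosamples under a single donor entry, so the spread between them may be technical. Both belong to 1 group, so conditions cannot be contrasted and p-values are absent.

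In this family, anti-apoptotic proteins hold the effectors BAK and BAX in check at the mitochondrial outer membrane, and BH3-only proteins tip the balance by occupying the anti-apoptotic proteins or by engaging the effectors. Once the effectors form pores, cytochrome c leaves the mitochondrion and caspases are activated. Red cell precursors depend on erythropoietin for survival, and the long protein of Bcl2l1, Bcl-xL, is the family member best known for keeping late erythroblasts alive.

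Levels are given as TPM, which is transcript abundance per length, scaled over all rows of a table. The tables held 80804873 expected counts on genes in replicate 1 and 117026199 in replicate 2. Of these, 5.44% and 5.82% fell on nuclear protein-coding genes, and mitochondrial rRNA took 78.3% and 78.5% of TPM, which lowers the TPM of every other gene. The median over nuclear protein-coding genes was 0.03 and 0.02 TPM, with 9064 of 21461 at 0 in both libraries. Detection required at least 1 TPM in each library, which 14.5% of nuclear protein-coding genes met. The erythroid label was met by 10 of 10 listed erythroid markers, whose summed level was 14641 TPM in replicate 1 and 15945 in replicate 2. All 15 listed neutrophil markers were detected too, with a sum of 2114 and 2432 TPM, and 9 of 10 monocyte and macrophage markers with 216 and 250 TPM. None of 8 B lineage markers was detected (4 were at 0 in both libraries). Detection reached 1 of 7 T and NK cell markers, 1 of 7 stem and progenitor markers, 1 of 6 megakaryocyte markers and 3 of 5 markers of mast cells and basophils. The share of each family transcript that came from other cells was not tested, and in bulk RNA fewer cells of a type and less RNA per cell cannot be told apart.

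Among the 10 members Bcl2l1 was the highest, Mcl1 came next, and the pro-apoptotic genes lay near or below a TPM of 1. The 4 detected members were Bcl2l1, Mcl1, Bak1 and Bid, against 3120 of 21461 nuclear protein-coding genes, or 14.5%. Detection depended on the scale: with TPM rescaled to nuclear protein-coding genes, 9 of 10 members passed, all but Bbc3. That rule is loose: Pmaip1 passed at a rescaled 1.71 and 1.77 TPM while ranking only 9518 and 9208 of 21461 genes, and all genes above it pass too. With an FPKM of 1 as the rule 3 members passed, since Bid had an FPKM of 0.93 in replicate 1. The share of all genes that pass these 2 other rules is not given here. In order of mean TPM the members were Bcl2l1, Mcl1, Bak1, Bid, Bax, Bcl2l11, Bad, Bcl2, Pmaip1 and Bbc3. The ranges of the 2 values did not overlap between neighbours in this order, except Bcl2l11 with Bad, Bad with Bcl2, and Pmaip1 with Bbc3. That does not settle the order, as deposited intervals of some other neighbours overlapped. Those of Bax were 0.117 to 0.374 and 0.185 to 0.426 TPM, and those of Bcl2l11 0.196 to 0.460 and 0.191 to 0.409. By deposited posterior means Bcl2l11 (0.30) was above Bax (0.27). In replicate 2 Bak1 (1.36 to 1.80) overlapped Bid (1.27 to 1.63).

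**Figure D1:**
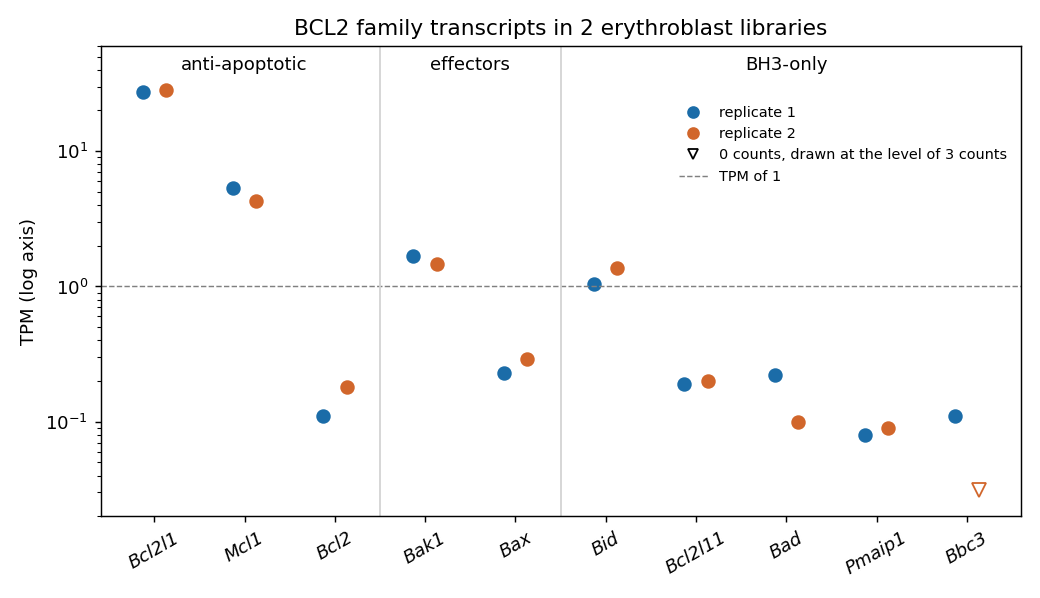
TPM (log axis) of the 10 BCL2 family genes in replicate 1 and replicate 2, ordered by mean within each role. Bcl2l1 lies near 28 TPM in both libraries, Mcl1, Bak1 and Bid lie above 1 TPM, and Bbc3 has 0 counts in replicate 2, where the open triangle marks the TPM that 3 counts would give.

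Bcl2l1 (chromosome 2, 152780668 to 152831728, minus strand, mm10) encodes Bcl-xL. It stood at 27.6 TPM in replicate 1 and 28.4 TPM in replicate 2 (28.0 ± 0.580, SD, n = 2), from 4331 and 6370 expected counts. The libraries were close, and the gene ranked 167 of 21461 nuclear protein-coding genes by mean TPM, at percentile 99.2. Relative to nuclear protein-coding genes alone its rescaled TPM was 589 and 556. The gene carried 75.4% of the TPM of the 10 members in replicate 1 and 78.1% in replicate 2.

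The deposited transcript table lists 9 Bcl2l1 transcripts, 8 of them with counts. Bcl2l1-201, which starts at the distal first exon and encodes the 233-residue Bcl-xL, led with 19.0 and 20.7 TPM, or 68.87% and 73.12% of the gene. Bcl2l1-205 followed with 6.51 and 5.65 TPM, or 23.63% and 19.92%. In Bcl2l1-205 exon 2 is not spliced to exon 3 but runs 1300 bases into the 47144-base intron, and its reading frame ends after 63 intronic coding bases, giving 209 residues. A form of this kind, without the C-terminal membrane anchor, has been called Bcl-xβ. The sequences at the end of exon 2 show where the forms part. Capitals mark exon 3 in the spliced form and intron bases, up to and including the TAA stop codon, in the form that reads through. The first runs across the junction (ends at 152829456 and 152782253), and the second is chr2:152829361-152829456, both read on the minus strand from the reference transcripts of mm10.
Bcl2l1-201: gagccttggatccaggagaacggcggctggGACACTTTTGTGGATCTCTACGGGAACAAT
Bcl2l1-205: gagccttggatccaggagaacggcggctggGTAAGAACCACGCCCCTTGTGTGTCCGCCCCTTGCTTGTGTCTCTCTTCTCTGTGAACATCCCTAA

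The capitals of the lower sequence begin with GT, the usual first bases of an intron, so the transcript is exon 2 left unspliced at this site. In total RNA, unspliced precursor of Bcl2l1-201 and mature Bcl2l1-205 share these bases and cannot be told apart. Both transcripts that encode the 233 residues, Bcl2l1-201 and Bcl2l1-202, together held 72.5% and 73.1% of the gene's TPM (72.8% ± 0.475). Both that read through, Bcl2l1-205 and Bcl2l1-206, held 24.2% and 20.6% (22.4% ± 2.53). The 4 with an incomplete annotated coding sequence held 3.34% and 6.24%. The long form therefore exceeded the form that reads through in both libraries, with no overlap. The short form Bcl-xS, a pro-apoptotic product made from an upstream splice site inside exon 2, was not analysed here, as no annotated transcript carries it.

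Transcripts with the distal first exon (152831603 to 152831728) held 69.1% of the gene's TPM in replicate 1 and 73.1% in replicate 2. Those with proximal first exons held 30.9% and 26.9%, most of it on Bcl2l1-205 (23.63% and 19.92%). No listed transcript joins the distal first exon to the bases read through, so unspliced precursor from the distal start could be assigned to Bcl2l1-205. These shares therefore do not measure use of the first exons by itself. The minor transcripts were less stable than the leading pair. Bcl2l1-202 stood at 0.99 TPM in replicate 1, with a deposited interval of 0.238 to 1.79, and at 0 in replicate 2, with an upper bound of 0.202. Bcl2l1-204, an incomplete model that shares its sequence with other forms, was the lower in replicate 1, at 0.48 TPM against 1.75 TPM. Bcl2l1-203, Bcl2l1-207 and Bcl2l1-208, all incomplete, held at most 0.99% of the gene's TPM in either library, and the noncoding Bcl2l1-209 had 0 counts in both. Of the leading pair, the deposited intervals of Bcl2l1-201 ran from 17.6 to 19.6 and from 19.8 to 21.0 TPM, which do not overlap, while those of Bcl2l1-205 ran from 5.88 to 6.88 and from 5.13 to 5.95 TPM, which do. These intervals are on TPM over all rows and were not rescaled. Nuclear protein-coding genes held 4.68% of TPM in replicate 1 and 5.10% in replicate 2. Whether the intervals of the libraries overlap therefore depends on the scale, for Bcl2l1-201 and Bcl2l1-205 alike. The level of confidence of these intervals is not given in the sources used here.

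**Figure D2:**
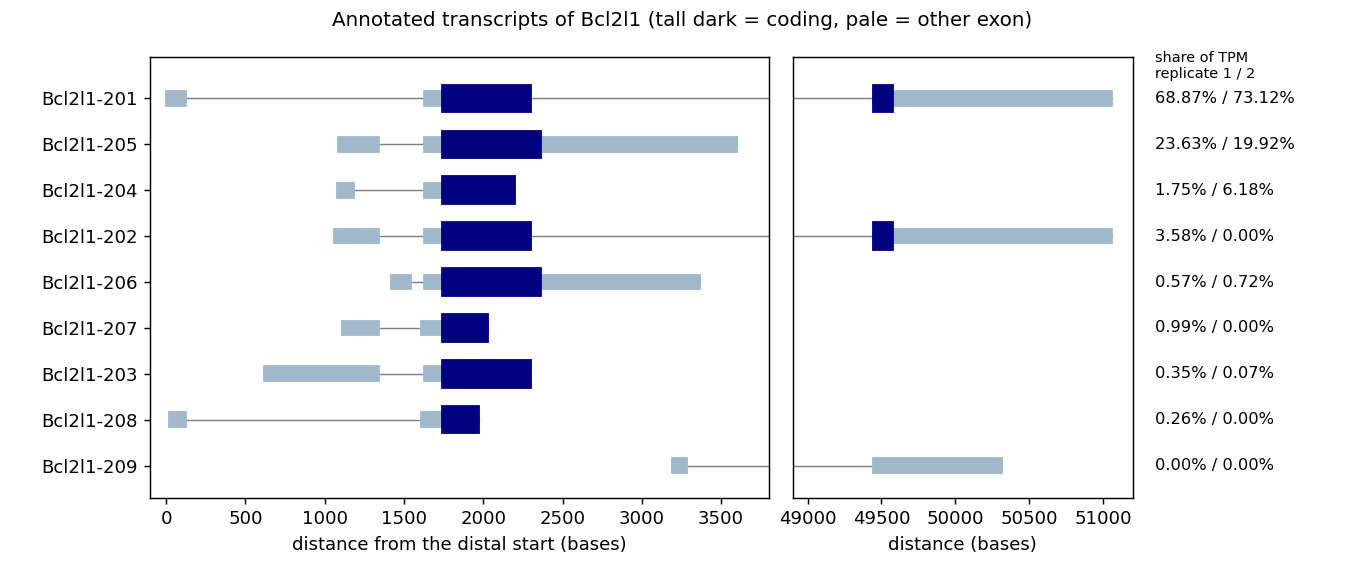
Annotated exons of the 9 Bcl2l1 transcripts by distance in bases from the distal start, drawn to scale within each panel, with most of the long intron left out between panels and each transcript's deposited share of TPM in replicates 1 and 2 at the right. Bcl2l1-201 (68.87% and 73.12%) joins exon 2 to the distant exon 3, while Bcl2l1-205 (23.63% and 19.92%) ends inside the intron.

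Mcl1 (chromosome 3, 95658788 to 95663176, plus strand) encodes a short-lived anti-apoptotic protein that is also the main survival factor of neutrophils. It stood at 5.33 and 4.25 TPM (4.79 ± 0.764), from 1284 and 1502 counts, and ranked 930 by mean TPM. Replicate 2 was the lower. The part of neutrophil RNA in the Mcl1 level was not tested. Bcl2l1 exceeded Mcl1 5.17 times in replicate 1 and 6.68 times in replicate 2 (log2 ratio 2.55 ± 0.26).

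All Mcl1 counts were assigned to the long form, but only 2 Mcl1 transcripts are listed. Another short form would have no transcript of its own here, so the shares cannot show whether one was present. Mcl1-201, with 331 residues, held 100% of TPM in both libraries. Mcl1-202, in which 138 bases of exon 1 are removed as an intron and 285 residues remain, had 0 counts in both. Its deposited posterior means, which give each transcript a small prior weight, were 0.02 and 0.01 TPM, with upper bounds of 0.0584 and 0.0435. The bases at issue, at chr3:95658879-95659076 on the plus strand, show what the missing form would lack. In Mcl1-201 capitals mark the 138 bases, and in Mcl1-202 they mark the first bases after the junction. The 138 bases begin with GC and end with GG, so they lack the GT that usually starts an intron. Whether Mcl1-202 is a real spliced form was not tested.
Mcl1-201: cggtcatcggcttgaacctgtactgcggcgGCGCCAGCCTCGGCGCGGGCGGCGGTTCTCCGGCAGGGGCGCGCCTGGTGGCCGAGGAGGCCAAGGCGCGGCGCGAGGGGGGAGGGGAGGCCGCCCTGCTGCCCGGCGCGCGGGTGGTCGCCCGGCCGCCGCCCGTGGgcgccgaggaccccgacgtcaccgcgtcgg
Mcl1-202: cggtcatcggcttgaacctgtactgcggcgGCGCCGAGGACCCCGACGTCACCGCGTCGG

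Bcl2 (chromosome 1, 106538178 to 106714274, minus strand), the founding member and a survival gene of lymphocytes, was low, at 0.11 and 0.18 TPM (0.145 ± 0.0495), from 53 and 124 counts. Its exact 95% Poisson intervals, which cover counting error only, were 39.7 to 69.3 and 103 to 148 counts. These are raw counts, not scaled for the greater depth of replicate 2, so the gap between them is in part depth. Bcl2l1 exceeded Bcl2 250 times in replicate 1 and 158 times in replicate 2. Bcl2-201, the 236-residue form, held 92.6% and 88.3% of its TPM. Bcl2-202, a form of 199 residues that ends 21 coding bases past the first splice site, held 7.4% and 11.8%. An antisense gene, D630008O14Rik, overlaps Bcl2, and whether counting used strand is not stated.

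Of the effectors, Bak1 was above Bax in both libraries by the TPM of the whole gene. Bak1 (chromosome 17, 27019810 to 27029009, minus strand) encodes the effector that sits in the mitochondrial membrane before any signal. It stood at 1.68 and 1.47 TPM (1.58 ± 0.148), from 243 and 287 counts. Bax (chromosome 7, 45461697 to 45466898, minus strand) encodes the effector that moves there from the cytosol. It stood at 0.23 and 0.29 TPM (0.26 ± 0.0424), from only 12 and 22 counts on its single transcript. Bak1 exceeded Bax 7.30 times and 5.07 times. These are ratios of gene totals. Bak1-202, the form with the full coding sequence, stood at 0.68 TPM in replicate 1, above Bax, and at 0.06 TPM in replicate 2, below Bax. Ggnbp1 lies across part of Bak1 on the opposite strand and Gm45808 across part of Bax on the same strand, so reads could be shared there.

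Most Bak1 TPM lay on a form that does not encode the full protein. Bak1-201 holds an extra exon of 20 bases that shifts the frame to a TGA stop 89 bases before the last junction, and it is annotated as a target of nonsense-mediated decay with 151 residues. It stood at 1.00 TPM in replicate 1 (59.53% of the gene) and 1.42 TPM in replicate 2 (96.16%). Bak1-202, the form of 209 residues, stood at 0.68 TPM (40.47%) and 0.06 TPM (3.84%). The deposited intervals of Bak1-202 were 0.488 to 0.908 and 0.0160 to 0.127 TPM, which do not overlap. Inclusion of a short Bak1 exon is known from neurons. The sequences show the exon in capitals (chr17:27021663-27021682, minus strand) and, for Bak1-202, the bases that follow when it is left out in capitals.
Bak1-201: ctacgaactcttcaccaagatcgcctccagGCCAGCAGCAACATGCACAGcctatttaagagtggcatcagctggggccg
Bak1-202: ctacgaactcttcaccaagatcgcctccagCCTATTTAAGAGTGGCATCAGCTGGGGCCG

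These transcripts differ at their starts as well, where 431 bases belong to Bak1-202 alone, so the shares do not measure use of the 20-base exon by itself. A change of this size was also common among other genes. A transcript's share differed by over 30 percentage points between the libraries in 37.3% of the 5613 nuclear protein-coding genes with over 1 transcript and at least 100 summed counts. The largest such difference was 36.6 points for Bak1, 31.9 for Bid, 40.3 for Bcl2l11, 4.43 for Bcl2l1, 4.35 for Bcl2 and 0 for Mcl1. Among those of these genes with 200 to 1000 summed counts, where Bak1 and Bid lie, 41.3% passed 30 points, and the median was 23.4 points. The shares of Bcl2l1, Bcl2 and Mcl1 differed less than the median of 20.0 points over all 5613 genes. Bcl2l1 and Mcl1 have many more counts than the lower limit of that set, and Mcl1-202 had 0 counts, so this is not a comparison at like depth.

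**Figure D3:**
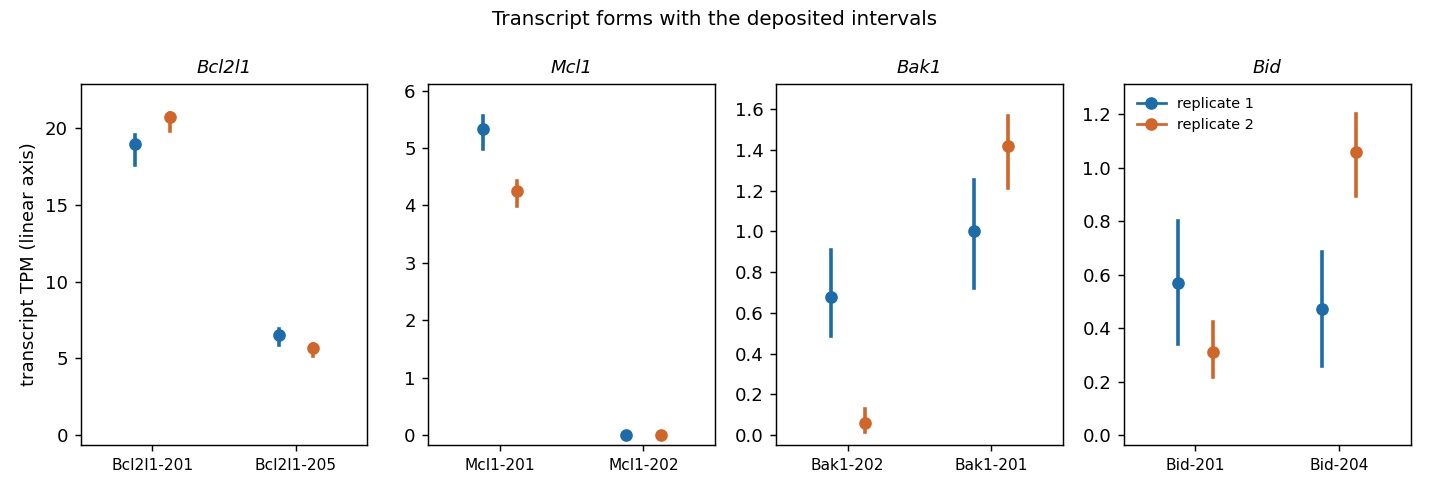
TPM (linear axes, a separate scale per gene) of the leading transcripts of Bcl2l1, Mcl1, Bak1 and Bid in replicates 1 and 2, where dots are the deposited TPM and lines the deposited interval. Bcl2l1-201 stays above Bcl2l1-205 and Mcl1-202 stays at 0, while Bak1-202 is at 0.68 TPM in replicate 1 and 0.06 in replicate 2, and Bid-204 at 0.47 and 1.06.

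Bid was the only one of the 5 BH3-only genes detected by TPM. BID is cut by caspase 8 and carries the death receptor signal to mitochondria. The gene (chromosome 6, 120891930 to 120916853, minus strand) stood at 1.04 and 1.37 TPM (1.21 ± 0.233), from 162 and 322 expected counts, and made up 63.4% and 77.8% of the TPM of the 5 BH3-only genes. Its counts were not whole, so some of its reads were shared with other genes, and Bcl2l13 and the pseudogene Gm17812 overlap it on the other strand. The leading transcript differed between the libraries: Bid-201 held 54.83% in replicate 1 and 22.91% in replicate 2, and Bid-204 held 45.17% and 77.09%. Bid-204 removes an intron of 681 bases after the stop codon, for which it is annotated as a decay target, and encodes the same 195 residues. Every Bid transcript with counts thus carried the full coding sequence.

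The other BH3-only genes rested on 0 to 77 counts per library. Bcl2l11 (chromosome 2, 128126038 to 128162547, plus strand) encodes BIM, which binds all the anti-apoptotic proteins, and stood at 0.19 and 0.20 TPM (0.195 ± 0.00707) from 47 and 77 counts. Its transcript Bcl2l11-205, of 196 residues, held 49.13% and 66.49%, and Bcl2l11-202, of 91 residues, held 50.87% and 10.56%. Another transcript, Bcl2l11-206, which has no coding sequence, held 0% and 15.6%. The first rests on 32.2 and 67.4 counts and the others on fewer, so their order is not settled at this depth.

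Bad (chromosome 19, 6941861 to 6951899, plus strand), whose protein is held inactive by phosphorylation under growth factor signals, had 10 counts in each library, at 0.22 and 0.10 TPM (0.16 ± 0.0849). The counts were equal and the TPM was not, as the libraries differed in depth and in the deposited effective length of the gene, 643 bases in replicate 1 and 967 in replicate 2. Bad-205, a model with an incomplete coding sequence, held 65.99% in replicate 1 and 0% in replicate 2, Bad-202 held 34.01% and 72.33%, and Bad-201 held 0% and 27.67%. Gpr137 overlaps Bad on the opposite strand. Pmaip1 (chromosome 18, 66458533 to 66465565, plus strand) encodes NOXA, a p53 target that binds MCL1, and stood at 0.08 and 0.09 TPM (0.085 ± 0.00707) from 15 and 23 counts on a single transcript. Bbc3 (chromosome 7, 16308393 to 16318205, plus strand) encodes PUMA, also a p53 target. It had 9 counts and 0.11 TPM in replicate 1, of which Bbc3-201 held 62.54% and Bbc3-202 37.46%, and 0 counts in replicate 2. By the limit of 3 counts used here for a 0, that allows 0.0311 TPM at the deposited effective length, while the deposited interval, which adds a prior, reaches 0.108 TPM. The exact 95% Poisson interval in replicate 1 was 4.12 to 17.1 counts.

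Summed by role, the anti-apoptotic genes held 33.0 TPM in replicate 1 and 32.8 in replicate 2, the effectors 1.91 and 1.76, and the BH3-only genes 1.64 and 1.76. The anti-apoptotic sum exceeded the pro-apoptotic sum (3.55 and 3.52 TPM) 9.29 times and 9.32 times (log2 ratio 3.22 ± 0.00277), and the BH3-only sum 20.1 times and 18.6 times (log2 ratio 4.28 ± 0.0779). Bcl2l1 set these ratios: without it the anti-apoptotic sum exceeded the pro-apoptotic sum 1.53 times and 1.26 times. With transcripts of full-length coding sequence alone, the log2 ratio was 3.61 for the pro-apoptotic and 4.13 for the BH3-only sum. The sums cover the chosen members only. Left out were Bnip3l, at 30.1 TPM in replicate 1 and 30.05 in replicate 2, and the BH3-only gene Bmf, at 0.1 and 0.67. The anti-apoptotic genes Bcl2a1b (0.57 and 0.19 TPM) and Bcl2a1d (0.08 and 0.61) were left out too. Bnip3l alone was near the anti-apoptotic sum, so the ratios would be far lower if it were counted as pro-apoptotic. All are ratios of RNA, and protein was not measured.

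The libraries were compared gene by gene on counts scaled by edgeR's TMM factors. Of the 9 members with at least 20 summed counts, 0 were over 1.5 times apart, against 43.8% of 11414 genes. With DESeq2 size factors 1 member, Bcl2, was over 1.5 times apart. The median absolute log2 ratio was 0.34 for the members and 0.49 for all genes. The log2 ratio of replicate 2 to replicate 1 was -0.09 for Bcl2l1, -0.42 for Mcl1, -0.40 for Bak1 and 0.34 for Bid. It was 0.57 for Bcl2, 0.20 for Bax, 0.06 for Bcl2l11, -0.03 for Pmaip1 and -0.54 for Bad. Depth bears on such counts: 71.2% of genes with 20 to 100 summed counts were over 1.5 times apart, 38.6% of those with 100 to 1000 and 6.20% of those with 1000 to 20000. Bcl2l1 and Mcl1 lie in the deepest of these ranges, and Bax, Pmaip1 and Bad in the shallowest.

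**Figure D4:**
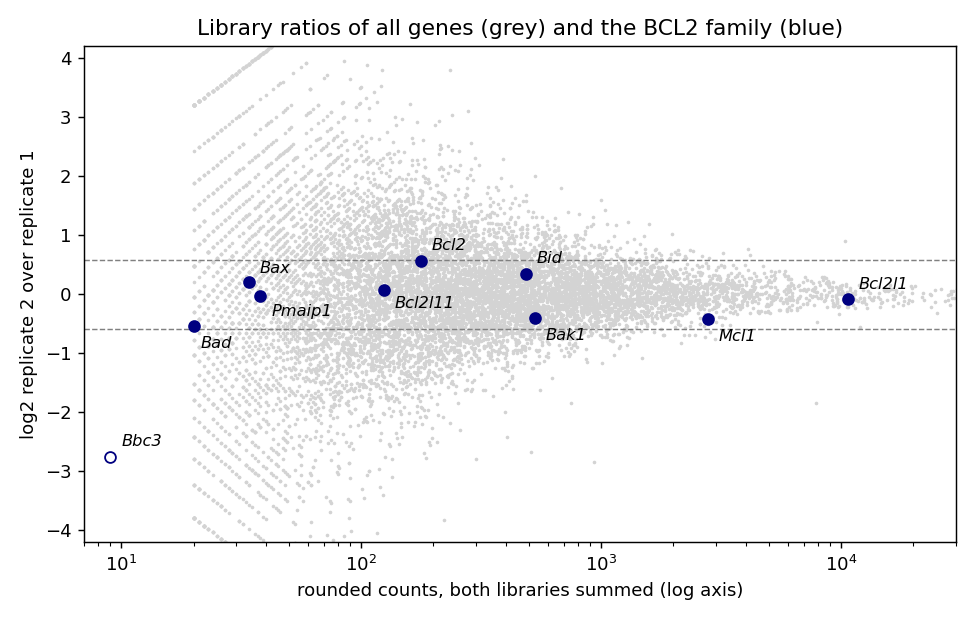
Log2 ratio of replicate 2 to replicate 1 after TMM scaling against the rounded counts of both libraries summed (log axis), for genes with at least 20 summed counts (grey) and the BCL2 family (blue, with Bbc3 open at 9 counts). Dashed lines mark 1.5 times in either direction, genes outside the axis ranges are not drawn, and the 9 members with at least 20 counts lie between the lines, from -0.54 for Bad to 0.57 for Bcl2.

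Among 15 other BCL2 family genes, 1 was detected, against 14.5% of nuclear protein-coding genes. Bnip3l, whose product NIX marks mitochondria for removal as red cells mature, stood at 30.1 TPM (± 0.0354), above Bcl2l1. Bcl2l15 followed at 1.16 ± 0.488, Bcl2l13 at 0.89 ± 0.156 and Bmf, a BH3-only gene, at 0.385 ± 0.403 TPM. Bcl2a1a, Bcl2l10, Bcl2l14, Bik and Hrk were listed at 0 in both libraries.

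Downstream of mitochondria, 7 of 18 genes of the apoptosome, caspases and their inhibitors were detected, against 14.5% of nuclear protein-coding genes. The highest were Birc5 (survivin, which also acts in cell division) at 4.91 ± 0.806 TPM, Birc6, a ubiquitin ligase that restrains caspases, at 3.79 ± 0.728, Htra2, a mitochondrial protease, at 3.69 ± 0.587 and Birc2, an inhibitor of apoptosis, at 1.56 ± 0.0424. The lowest were Diablo, which encodes SMAC, at 0.215 ± 0.0212 and the nuclease gene Endog at 0.015 ± 0.0212 TPM. Of 10 death receptor genes 1 was detected, against the same 14.5%. It was Casp8, the protease that cuts BID, at 1.13 and 1.93 TPM (1.53 ± 0.566). Behind it came the receptor gene Tnfrsf1a at 1.10 ± 0.276, Ripk1 at 0.56 ± 0.382 and Cflar, an inhibitor of caspase 8, at 0.55 ± 0.127. Tnfrsf10b was at 0.005 ± 0.00707 TPM and Fasl at 0.

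Of 19 listed regulators of the family 15 were detected, against 14.5% of nuclear protein-coding genes. The wider lists were chosen with earlier results known, so their counts are not a result about the lists. March5, a ubiquitin ligase of the mitochondrial outer membrane, was at 20.6 ± 2.54 TPM, Foxo3, a transcription factor that can induce Bcl2l11 and Bbc3, at 8.64 ± 0.460, the kinase gene Pim1 at 7.72 ± 0.0919 and the 14-3-3 gene Ywhaz, whose product holds phosphorylated BAD, at 6.25 ± 1.48. The lowest were Mapk8 at 0.255 ± 0.134 and Fbxw7, which targets MCL1 for degradation, at 0.155 ± 0.163 TPM. The medians of the lists in replicates 1 and 2 were 0.08 and 0.19 TPM for other family genes, 0.69 and 0.97 for caspases and inhibitors, 0.275 and 0.235 for death receptors and 2.03 and 2.51 for regulators. The median over the 10 members was 0.225 and 0.245 TPM, and that over all nuclear protein-coding genes was 0.03 and 0.02.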

How the data were processed

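Total RNA of erythroblasts was measured in 2 libraries of 1 group. Per the deposited read-me, tables per gene and per transcript were made from a transcriptome alignment on mm10 with GENCODE M4. Which aligner, quantifier and strand setting were used is not given in the sources used here. In the deposited expected counts the authors shared out reads that match several places. They were rounded for count scaling only. The deposited TPM was scaled over all rows, mitochondrial rRNA included. FPKM, per the file headers, served as an alternative. The deposited posterior mean of TPM and its interval bounds are scores used as alternatives and as errors. The percent of a gene's TPM on each transcript was deposited too, and sums over forms were computed from TPM.

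Of 43346 gene rows, 42462 matched GENCODE M21 (the same build) by Ensembl identifier without version, which gave symbols, coordinates and transcript structures. Forms were defined by the annotated coding sequence. Sequences come from the M21 transcripts and, for intron bases, from the transcript that holds them. Count ratios used edgeR 4.0.16 (TMM factors 0.962 and 1.04, prior count 2) with DESeq2 1.42.0 as an alternative, and were tested on simulated data. Values are the mean ± SD of n = 2, with exact Poisson intervals (95%) for counting error only, since no molecular identifiers mark independent molecules. For a count of 0 the limit used is 3 counts, a one-sided bound.

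The text names all 10 members, all Bcl2l1 and Mcl1 transcripts, and of other members the leading transcripts and those at 10% of TPM or more. From each wider list it names the 4 highest and 2 lowest genes, with ties at 0. The members were picked by symbol, and they, the lists and the alternatives were chosen with earlier results of these data known. Alternatives were other scalings, units, filters, each library alone and other definitions of a form.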

Additional observations from a re-analysis of the deposited data

How the results depend on the processing

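Of 76 alternative values, 53 stayed within the spread between libraries or within 1.5 times a count, and 23 moved. Of the 40 that bear on the ratios, the long form shares and the counts of members, 19 stayed and 21 moved. With n = 2, a ratio, level or share from 1 library alone lies within the spread by construction, so those values could not move. The log2 ratios changed direction in 0 cases, and levels, shares and counts have no direction to change. No alternative added Bnip3l or other family genes to the sums. The log2 ratio of anti-apoptotic to pro-apoptotic TPM (3.22) was 3.03 with posterior means, 2.90 with a pseudocount of 1 TPM, 3.47 from counts without length correction, 4.52 with transcripts annotated as protein-coding only, 3.61 with full-length coding forms only, 3.97 as a median over members and 0.47 without Bcl2l1. The ratio to BH3-only genes (4.28) was 4.0, 3.65, 4.38, 5.25 and 4.13 under the first 5 of these. The Bcl2l1 long form share (72.8%) was 77.1% by counts, 72.0% by posterior means and 76.5% among transcripts with an annotated stop codon. The Mcl1 share was 99.7% by posterior means. The members detected, 4 by TPM, were 9 both with at least 10 counts in each library as the rule and with rescaled TPM, and 3 by FPKM, where Bid was not detected. Members over 1.5 times apart were 1 with DESeq2 size factors, 2 by deposited TPM and 1 with no filter on low counts. For these alternative counts of members the share over all genes is not given, so they say nothing particular to the members. The full-length and no-Bcl2l1 ratios and the stop codon rule were added after seeing the data. Posterior means were higher than TPM for 8 of 10 members, and moved Bcl2l11 to 0.30 TPM and Bad to 0.245 TPM. No paired analysis was possible because there is 1 group. With 2 libraries and 9 to 38 summed counts for Bax, Bad, Pmaip1 and Bbc3, few differences between them could be resolved at this depth.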

Other observations

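The Bcl2a1 genes, anti-apoptotic family members of granulocytes and other blood cells, were looked at after their values were seen. Bcl2a1b stood at 0.57 TPM in replicate 1 and 0.19 in replicate 2, with 28 and 13.3 expected counts, and Bcl2a1d stood at 0.08 and 0.61 TPM, with 4 and 45.7 counts. These genes are near-identical copies that can share reads, so the split between them is uncertain. Among genes that act on the family, Gata1, the erythroid transcription factor linked to Bcl2l1 induction, was at 2.25 and 4.09 TPM, and the erythropoietin receptor gene Epor at 3.17 and 3.55 TPM. Stat5b and Stat5a, which relay the erythropoietin signal, were at 0.33 and 0.77 TPM and at 0.39 and 0.25 TPM.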
